A study of Rattus norvegicus with 3 samples.

Results

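Odam, Amtn, Klk4, Csn3 and Wdr72 were taken by name as a maturation-stage set of 5 genes, out of 16516 genes compared across stages. RNA had been sequenced from 3 cell populations dissected from enamel organs of Wistar Hannover rats, which were maturation ameloblasts, secretory ameloblasts and cells of the cervical loop. Per the labels, 5 rats gave tissue. RNA with an integrity number under 7 was not used, which left out 1 cervical loop library. The labels give no treatment and no age for these animals. Each population is represented by 1 mean per gene, so no standard deviation stands beside a level, and replicate error is carried by the deposited p-values alone.

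Enamel is first laid down as a protein matrix and then hardened, as ameloblasts of the maturation stage remove the protein and move ions into the space. Odam (odontogenic, ameloblast associated) and Amtn (amelotin) are secreted into the basal lamina that forms between the maturation ameloblast and the enamel. Klk4 is a serine protease that breaks down leftover matrix. Csn3 is kappa-casein, a milk protein gene of the same secretory calcium-binding phosphoprotein (SCPP) family as Odam, Amtn and the enamel matrix genes. Wdr72 is an intracellular protein with WD repeats, needed in mice for the removal of matrix protein by maturation ameloblasts.

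Marker genes were read in each population. The cycling genes Mki67, Top2a, Ccnb1 and Cdk1 summed to an authors' mean of 545 in the cervical loop, 71.5 in secretory and 66.2 in maturation cells. The secretory genes Amelx, Ambn, Enam and Mmp20 summed to 2920, 112877 and 5621 in the same order. The 6 markers of cervical loop progenitors were mixed, with a sum of 721, 1723 and 1016. Of these, Sox2, Lgr5, Sfrp5 and Shh were lower in maturation than in cervical loop cells, Igfbp5 was higher and Lrig1 did not pass. Ion transport genes known from maturation ameloblasts are given further on. Mesenchyme markers were present in each population, and in bulk RNA a change in the share of a cell type cannot be told apart from a change in RNA per cell. Sequencing was set at 25000000 reads for each library, per the labels, while the sources used here do not give reads per gene. The 75th percentile of the authors' means lay between 22.6 and 22.8 in the 3 stages.

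All 5 genes had their highest mean in maturation ameloblasts. Odam had an authors' mean of 29.3 in the cervical loop, 127 in secretory and 3159 in maturation cells. Its step from secretory to maturation was the steepest of the 5 genes, while its cervical loop and secretory means lay closer together. Amtn had authors' means of 43.4, 332 and 1514 in the same stage order, and was already well above its cervical loop level in secretory cells. Klk4 stood at 2.25 in the cervical loop, 19.3 in secretory and 142 in maturation cells, by the authors' means. Csn3 stood at 0.0756, 4.73 and 34.3, so that in the cervical loop it was under 0.1, the level used here as a floor against which no ratio is given. Wdr72 had authors' means of 7.32, 21.7 and 71.5, with steps of nearly equal size on a log scale. The means of Odam and Amtn added up to 0.0167% of the sum over all genes in the cervical loop, 0.0748% in secretory and 0.965% in maturation cells.

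**Figure D1:**
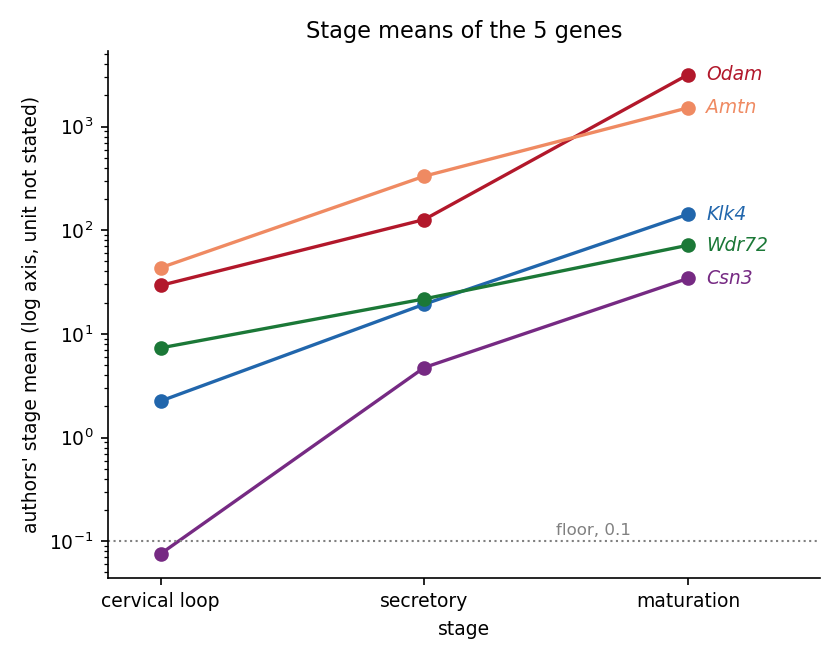
Authors' mean of each gene (y axis, log scale, unit not stated) in cervical loop, secretory and maturation cells (x axis), 1 point per gene and stage. All 5 lines climb at each step, and the dotted line marks the floor of 0.1, under which Csn3 starts at 0.0756. Nothing states that the means are per transcript length, so heights of different genes are not compared.

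Between maturation and secretory ameloblasts, stages of matrix removal and of matrix secretion, all 5 genes were higher in maturation. Each passed the threshold of 0.05 on the authors' false discovery rate (FDR, Benjamini-Hochberg over all genes). Of all genes, 21.8% passed as higher and 21.1% as lower in this comparison. The 5 genes were chosen as maturation-stage genes with earlier results of these data known. Their direction here and against the cervical loop is therefore not independent evidence. Under the stricter Benjamini-Yekutieli adjustment 1 of the 5 genes, Wdr72, still passed, and at a threshold of 0.01 Odam and Wdr72 did. All 5 ratios were also above 2-fold, and 9.33% of all genes passed as higher by 2-fold or more. In the authors' deposited table, Odam was 24.9-fold higher in maturation (FDR = 0.00661), and its ratio ranked 22 among 15880 genes with both means above the floor. The authors' deposited table put Klk4 7.37-fold (FDR = 0.0140) and Csn3 7.24-fold higher (FDR = 0.0138). These were nearly the same ratio, for a protease and for a casein. Amtn was 4.56-fold higher (the authors' deposited table, FDR = 0.0223), the weakest of the 5 by FDR. Wdr72 had the smallest ratio and the smallest FDR of the 5, at 3.29-fold higher (the authors' deposited table, FDR = 0.00215).

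The error of these ratios was read back from the p-values. The p-values of the 3 comparisons fitted one another best with 6 error degrees of freedom and a test on a log scale, which gives each log2 ratio an implied standard error. The implied value holds only as far as the ratio of means follows the difference of mean logs. For maturation against secretory it was 0.83 for Odam (log2 ratio 4.64), 0.64 for Klk4 (2.88), 0.63 for Csn3 (2.86), 0.55 for Amtn (2.19) and 0.23 for Wdr72 (1.72). The 95% interval of the fold ran from 6.09 to 102 for Odam and from 2.24 to 4.84 for Wdr72. It ran from 2.5 to 21.7 for Klk4, from 2.49 to 21.1 for Csn3 and from 1.79 to 11.7 for Amtn. The intervals of Klk4, Csn3 and Amtn overlap over most of their length. Odam's interval lay above that of Wdr72, and the difference itself was not tested.

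Over the whole course, maturation ameloblasts stood above cervical loop cells for all 5 genes, where 24.1% of all genes passed as higher, 33.7% as lower and 10.6% as higher by 2-fold or more. In the authors' deposited table, Odam was 108-fold higher in maturation (FDR = 0.00141), with ratio rank 5 of 15882. The authors' deposited table put Klk4 63.3-fold (FDR = 0.00168) and Amtn 34.9-fold higher (FDR = 0.000872), at ratio ranks 12 and 31. By the authors' deposited table, Wdr72 was 9.78-fold higher (FDR = 0.000161), with an interval from 6.65 to 14.4. Csn3 was at least 343-fold higher when the cervical loop is set to the floor, and 32.8-fold higher with 1 added to both means (the authors' deposited table, FDR = 0.00154). With that pseudocount Klk4 was 44.1-fold higher.

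Between secretory ameloblasts and the cervical loop, 2 of the 5 genes passed, which does not show that they differ from the other 3. Amtn (7.64-fold higher, FDR = 0.0164) and Wdr72 (2.97-fold higher, FDR = 0.00395) passed in the authors' deposited table. With Benjamini-Yekutieli or at 0.01 Wdr72 alone did. Of all genes, 16.5% passed as higher, 25.2% as lower and 6.62% as higher by 2-fold or more. Odam (127 in secretory and 29.3 in cervical loop cells, FDR = 0.191) did not pass, by the authors' deposited table. Neither did Klk4 (19.3 in secretory and 2.25 in cervical loop cells, FDR = 0.0891) or Csn3 (4.73 in secretory and 0.0756 in cervical loop cells, FDR = 0.0786) in the authors' deposited table. By its means Klk4 was 8.59-fold higher, more than Amtn, with an implied standard error of 1.22 on the log2 scale and an interval from 1.08-fold to 68.2-fold, before any adjustment over genes. For Odam the interval ran from 0.617-fold to 30.2-fold, which spans values on both sides of no change. For Wdr72 the standard error was 0.24.

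**Figure D2:**
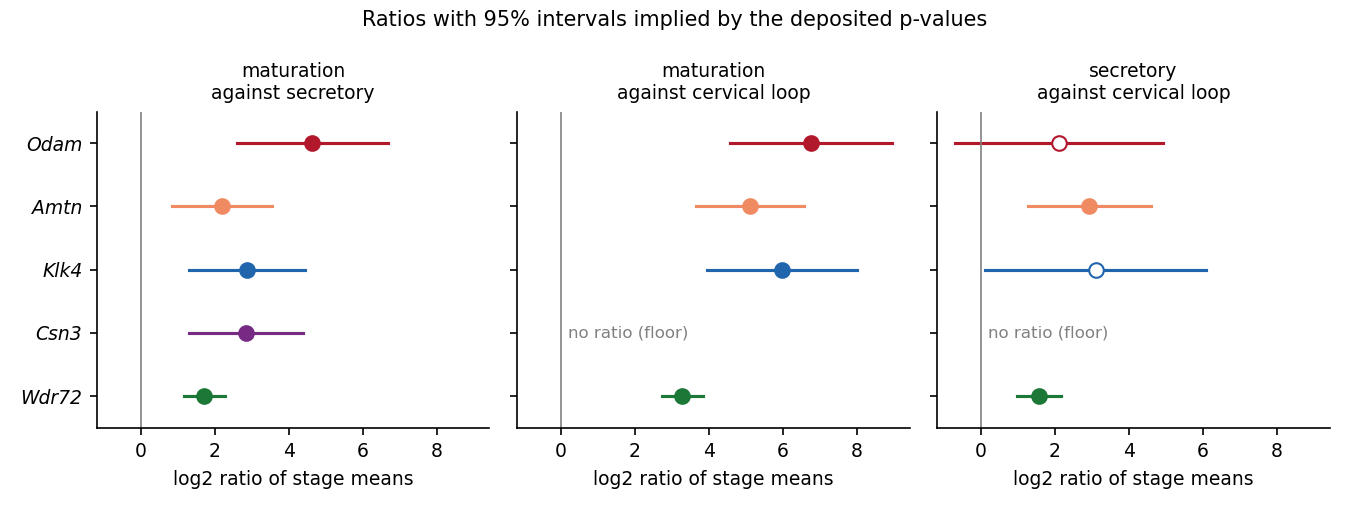
Log2 ratio of stage means for the 5 genes in each comparison, as points with the 95% interval that the deposited p-value implies. Filled points have an FDR under 0.05, open points do not, and no ratio is drawn for Csn3 against the cervical loop. Wdr72 has the narrowest interval in each panel, and the open points are Odam and Klk4 in secretory against cervical loop.

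The split of the whole change between the 2 steps was read in 2 ways, from the logs of the stage means and from the p-values, which weigh each library on the log scale. For Odam, 26.0% of the log change between cervical loop and maturation was reached by the secretory stage from the p-values and 31.3% from the means. For Amtn these values were 53.9% and 57.3%, and for Wdr72 47.9% and 47.8%. For Klk4 they were 37.6% and 51.9%, the widest gap of the 4 genes with both values. For Csn3 the p-values gave 38.5%. Amtn and Wdr72 had thus covered about as much before as after the secretory stage, and Odam most of it after. The quartiles of the 3987 genes higher in maturation than in the cervical loop lay at -2.72%, 32.8% and 74.2%, and all 5 genes lay between the outer ones. No error was computed for these shares.

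**Figure D3:**
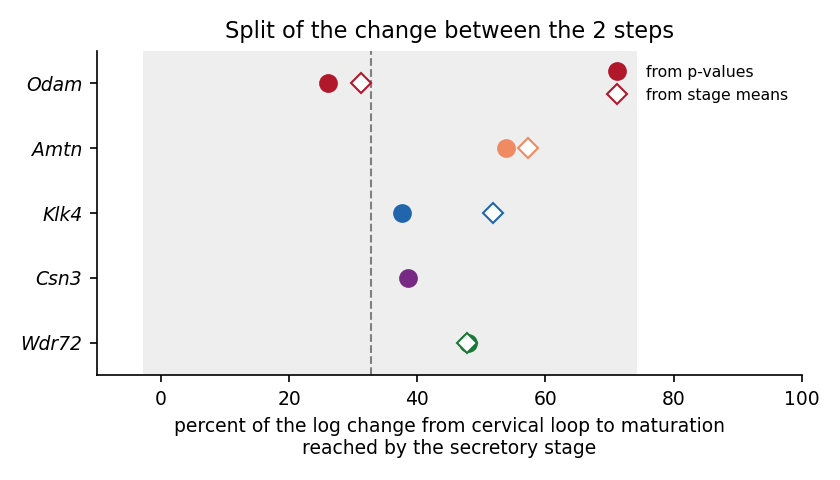
Share of the log change from cervical loop to maturation that was reached by the secretory stage (x axis, percent), for each gene, from the deposited p-values (filled circles) and from the stage means (open diamonds). The grey band and dashed line are the range between the quartiles and the median, 32.8%, of the 3987 genes higher in maturation than in the cervical loop. Odam is lowest at 26.0% and Amtn highest at 53.9% from the p-values.

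Odam, Amtn and Csn3 lie in 1 gene cluster with the matrix genes Enam and Ambn. In the gene order of the RefSeq annotation (assembly GRCr8, used for order and not for positions of the deposited data, whose build is rn6), 19 protein-coding genes run from Enam to Csn1s1 on chromosome 14, of which 6 had values. Enam and Ambn, which encode enamelin and ameloblastin of the secretory matrix, come first, and Amtn follows directly. Enam was 168-fold lower in maturation than in secretory cells and Ambn 11.6-fold lower (FDR = 0.00137 and FDR = 0.0185, the authors' deposited table), next to the higher Amtn. Beyond Amtn comes Oprpn, with authors' means of 0.0719, 0.281 and 0.0532 across the stages. Csn3 comes further on, and Fdcsp is the single gene between it and Odam. Milk casein genes follow Odam in this order and were not analysed here. Genes of the cluster therefore peaked at 2 different stages, Enam and Ambn in secretory cells, and Amtn, Csn3 and Odam in maturation cells. Oprpn was also highest in secretory cells, at a low mean, and did not pass against maturation (the authors' deposited table, FDR = 0.0505).

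**Figure D4:**
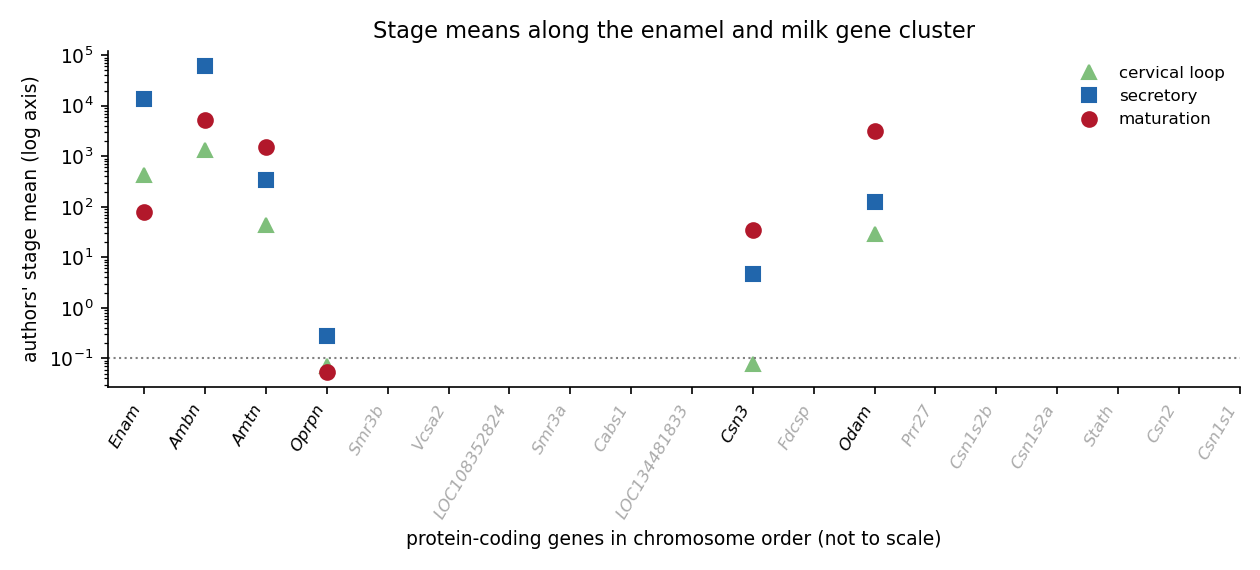
Authors' stage means (y axis, log scale) of the protein-coding genes from Enam to Csn1s1 in chromosome order (x axis, not to scale), with triangles for cervical loop, squares for secretory and circles for maturation. Genes in grey have no value here, and the dotted line is the floor of 0.1. Squares are on top for Enam, Ambn and, at low means, Oprpn, and circles for Amtn, Csn3 and Odam.

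Since all 5 genes were highest in maturation, the 250 bases before the transcription start in RefSeq's GRCr8 promoter table are shown for the 4 that have an entry there. Each run reads 5′ to 3′ on the gene's own strand and ends at the base before the start. Capitals mark matches, on either strand, to the motifs CCAAT, TTNNGNAA (a loose form of the site of C/EBP factors) and AGAACA (part of the site of the glucocorticoid receptor). For Odam and Wdr72 the start used there lies inside the annotated span of the gene, so that other starts exist.
Odam, chr14:20481761-20482010, minus strand: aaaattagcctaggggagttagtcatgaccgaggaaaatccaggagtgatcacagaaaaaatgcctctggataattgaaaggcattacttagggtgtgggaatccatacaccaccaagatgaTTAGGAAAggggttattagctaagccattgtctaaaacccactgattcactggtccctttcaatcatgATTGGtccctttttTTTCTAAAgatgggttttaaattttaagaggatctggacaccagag
Amtn, chr14:19945224-19945473, minus strand: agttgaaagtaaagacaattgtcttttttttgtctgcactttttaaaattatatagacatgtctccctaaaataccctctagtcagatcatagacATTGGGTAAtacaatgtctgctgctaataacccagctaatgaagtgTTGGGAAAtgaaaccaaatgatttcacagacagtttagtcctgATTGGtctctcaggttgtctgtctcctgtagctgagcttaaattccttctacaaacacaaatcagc
Csn3, chr14:20439831-20440080, minus strand: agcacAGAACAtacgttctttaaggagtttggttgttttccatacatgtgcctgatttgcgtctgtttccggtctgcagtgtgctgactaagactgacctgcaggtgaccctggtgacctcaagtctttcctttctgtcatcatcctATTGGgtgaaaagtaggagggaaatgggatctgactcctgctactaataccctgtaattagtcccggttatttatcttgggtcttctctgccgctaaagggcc
Wdr72, chr8:83740197-83740446, plus strand: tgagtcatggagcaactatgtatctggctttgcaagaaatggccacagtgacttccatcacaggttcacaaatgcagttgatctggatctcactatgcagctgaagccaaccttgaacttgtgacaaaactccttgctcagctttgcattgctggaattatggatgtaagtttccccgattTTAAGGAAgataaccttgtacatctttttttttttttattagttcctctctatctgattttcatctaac

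The cluster genes Odam, Amtn and Csn3 each held CCAAT, which 34.0% of all 33469 promoters of this length hold. In all 3 genes it read ATTGG, the motif's other strand, beginning 60 bases before the start in Odam, 155 and 66 in Amtn and 103 in Csn3. The first of the Amtn copies overlaps a TTNNGNAA match. TTNNGNAA was found in Odam, Amtn and Wdr72 and in 37.2% of all promoters. AGAACA was found in Csn3 and in 17.5% of all. The core of the RUNX site, TGTGGT, was in none of the 4 windows and in 14.5% of all promoters. The same holds for the TATA box, searched as TATAAA, at 12.9% of all promoters. A site of FOXO factors, GTAAACA, was in none of the 4 and in 3.21% of all. A site of STAT5, TTCNNNGAA, was in none of the 4 and in 7.67% of all. The windows had a GC content of 40.4% in Odam, 36.4% in Amtn, 46.8% in Csn3 and 39.2% in Wdr72, against a median of 51.2% and quartiles of 44% and 60% over all promoters.

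None of the 8 other SCPP genes that were listed and had a value passed as higher in maturation than in secretory cells. Of 10 listed genes with a value beside Odam, Amtn and Csn3, 2 were higher in maturation than in secretory cells, 4 were lower and 4 did not pass. Their median log2 ratio was -0.55 against 0.00 over all genes, of which 21.8% passed as higher and 21.1% as lower. The 2 higher ones belong to the SPARC family, from which SCPP genes are thought to derive, and are not SCPP genes themselves. Sparcl1 was 4.03-fold and Sparc, an abundant matrix glycoprotein gene of connective tissue and bone, 1.46-fold higher in maturation (FDR = 0.000545 and FDR = 0.0168, the authors' deposited table). Amelx, the amelogenin gene, was 171-fold lower (the authors' deposited table, FDR = 0.000897). Dspp, a dentin matrix gene, had authors' means of 0.0701 in maturation and 22.2 in secretory cells, at least 222-fold lower against the floor (the authors' deposited table, FDR = 0.0467). Spp1 (622.5 in maturation and 366 in secretory cells, FDR = 0.289) and Ibsp (62.2 in maturation and 30.1 in secretory cells, FDR = 0.122), both of bone matrix, did not pass, by the authors' deposited table. Odam, Amtn and Csn3 rose at a step where Amelx, Enam and Ambn fell.

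All 3 genes of the Fam20 family, which act in the secretory pathway, fell as well. Among all genes, 21.8% passed as higher and 21.1% as lower in maturation than in secretory cells. Fam20c, which encodes the main kinase of secreted phosphoproteins, was 3.88-fold lower in maturation than in secretory cells (the authors' deposited table, FDR = 0.000712). Fam20a, its partner, was 3.83-fold and Fam20b, a kinase of sugar chains, 1.6-fold lower (FDR = 0.00151 and FDR = 0.000497, the authors' deposited table). Against the cervical loop, Fam20c stood at 48.1 in maturation and 35.5 in cervical loop cells and did not pass (the authors' deposited table, FDR = 0.0578). Nor did Fam20a, at 47.7 in maturation and 34.4 in cervical loop cells (FDR = 0.0904). Fam20b was 1.27-fold higher in maturation than in the cervical loop (FDR = 0.00428, the authors' deposited table). Odam and Amtn thus had their highest means at a stage where all 3 Fam20 genes were below their secretory level.

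Klk4 was compared with its family and with proteins that activate or block such proteases. Of 21 other kallikreins listed, 4 had a value, and the rest were not analysed here. Klk8, Klk10, Klk11 and Klk1b3 had authors' means under 1 in every stage. Of these 4, none was higher in maturation than in secretory cells, and Klk1b3 was lower (0.0577 in maturation and 0.394 in secretory cells, the authors' deposited table, FDR = 0.00460). Among all genes, 21.8% passed as higher and 21.1% as lower. Kallikrein genes resemble one another in sequence, and how the authors' counting treated reads shared among them is unknown from the sources used here. Mmp20, the protease of the secretory stage that activates Klk4, was 16.8-fold lower in maturation than in secretory cells (the authors' deposited table, FDR = 0.0104). The authors' means of Mmp20 were 41.9, 1239 and 73.7 from cervical loop to maturation. Of 7 such proteases, 1 other gene passed, as Ctsb, a lysosomal protease gene, was 1.46-fold higher in maturation (FDR = 0.00971, the authors' deposited table). Ctsc, a cathepsin known to activate Klk4 in vitro, stood at 74.4 in maturation and 60.9 in secretory cells (the authors' deposited table, FDR = 0.354), and was 2.56-fold higher in maturation than in the cervical loop (FDR = 0.00163).

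Inhibitors of serine proteases moved in both directions. Of 19 with a value, 5 were higher in maturation than in secretory cells, 3 were lower and 11 did not pass. Among all genes 21.8% passed as higher and 21.1% as lower, so these counts show nothing particular to the inhibitors. Serpinb1a, an intracellular inhibitor of neutrophil-type proteases, was 21.9-fold higher and Slpi, a secreted inhibitor of leukocyte proteases, 4.03-fold higher (FDR = 0.000223 and FDR = 0.00215, the authors' deposited table). Serpinb9, the granzyme B inhibitor, was 2.94-fold lower and Serpinb6a 1.29-fold lower (FDR = 0.000359 and FDR = 0.0351, the authors' deposited table). Serpinf2, which encodes the main plasmin inhibitor, was 1.93-fold lower at means under 1 (the authors' deposited table, FDR = 0.0298). Spint1 (19.4 in maturation and 23.4 in secretory cells, FDR = 0.176) and Spint2 (112 in maturation and 134 in secretory cells, FDR = 0.175), membrane-bound inhibitors of epithelial proteases, did not pass, by the authors' deposited table.

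Wdr72 is related in sequence to Wdr7, which works with Dmxl1, Dmxl2 and Rogdi in assembling the proton pump of endosomes. Of these 4, 1 was higher in maturation than in secretory cells, 1 was lower and 2 did not pass. Among all genes, 21.8% passed as higher and 21.1% as lower. Dmxl1 was 2.60-fold higher in maturation, against secretory cells (the authors' deposited table, FDR = 0.00206), with authors' means of 271 in maturation and 105 in secretory cells. Dmxl2 was 1.36-fold lower (the authors' deposited table, FDR = 0.0325). Wdr7 itself, at 32.1 in maturation and 30.9 in secretory cells, did not pass (the authors' deposited table, FDR = 0.543), nor did Rogdi (35.9 in maturation and 25.6 in secretory cells, FDR = 0.0754). Against the cervical loop Rogdi was 2.53-fold and Wdr7 1.23-fold higher in maturation (FDR = 0.00299 and FDR = 0.00955, the authors' deposited table). Dmxl2, at 13.5 in maturation and 13.3 in cervical loop cells, did not pass there (the authors' deposited table, FDR = 0.811).

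Amtn, Klk4 and Wdr72 are also genes in which human mutations cause inherited defects of enamel. Of 26 others on that list with a value, 5 were higher in maturation than in secretory cells (21.8% of all genes). Another 14 were lower (21.1% of all genes) and 7 did not pass, with a median log2 ratio of -0.74 for the 26. Among those higher were Stim1, the calcium sensor of store-operated entry, at 2.64-fold, and Cnnm4, a magnesium transport gene, at 2.55-fold (FDR = 0.000829 and FDR = 0.00442, the authors' deposited table). Relt and Sp6 were 17.1-fold and 4.89-fold lower and Slc10a7 1.89-fold lower (FDR = 0.000557, FDR = 0.000752 and FDR = 0.000302, the authors' deposited table). Against the cervical loop, 20 of these 26 genes were higher in secretory cells and 0 were lower, where 16.5% of all genes were called higher. Amtn and Wdr72 passed at that step too.

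Genes of ion transport in maturation ameloblasts moved with the 5 genes. Of 14 with a value, 11 were higher in maturation than in secretory cells (21.8% of all genes). In this list 1 was lower (21.1% of all genes) and 2 did not pass. The median log2 ratio was 2.48 against 0.00 over all genes. Slc34a2, a phosphate transporter, was 58.3-fold, the transferrin receptor gene Tfrc 17.3-fold and the ferritin gene Fth1 8.64-fold higher (FDR = 0.000544, FDR = 0.000321 and FDR = 0.000528, the authors' deposited table). The anion exchanger gene Slc26a6 was 2.78-fold higher and the calcium pump gene Atp2b1 5.58-fold lower (FDR = 0.000401 and FDR = 0.00310, the authors' deposited table). The list was chosen as known maturation genes, so its direction is not independent evidence.

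Odam and Amtn are deposited beside the laminin-332 layer that joins the ameloblast to enamel. Of 10 basal lamina and hemidesmosome genes, 1 was higher in maturation than in secretory cells, 6 were lower and 3 did not pass. Among all genes, 21.8% passed as higher and 21.1% as lower. Against the cervical loop, 8 of the 10 were higher in maturation, 1 was lower and 1 did not pass. The shares of all genes there were 24.1% higher and 33.7% lower. With secretory cells as the reference, Itga6, an integrin chain of hemidesmosomes, was 2.81-fold higher in maturation (the authors' deposited table, FDR = 0.000179). In the same comparison Lamb3, which encodes a laminin-332 chain, was 5.11-fold lower, and Dst, a hemidesmosome linker, 2.89-fold lower (FDR = 0.00176 and FDR = 0.00163, the authors' deposited table). Lamb3 was 2.98-fold higher in maturation than in the cervical loop (FDR = 0.00348, the authors' deposited table).

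**Figure D5:**
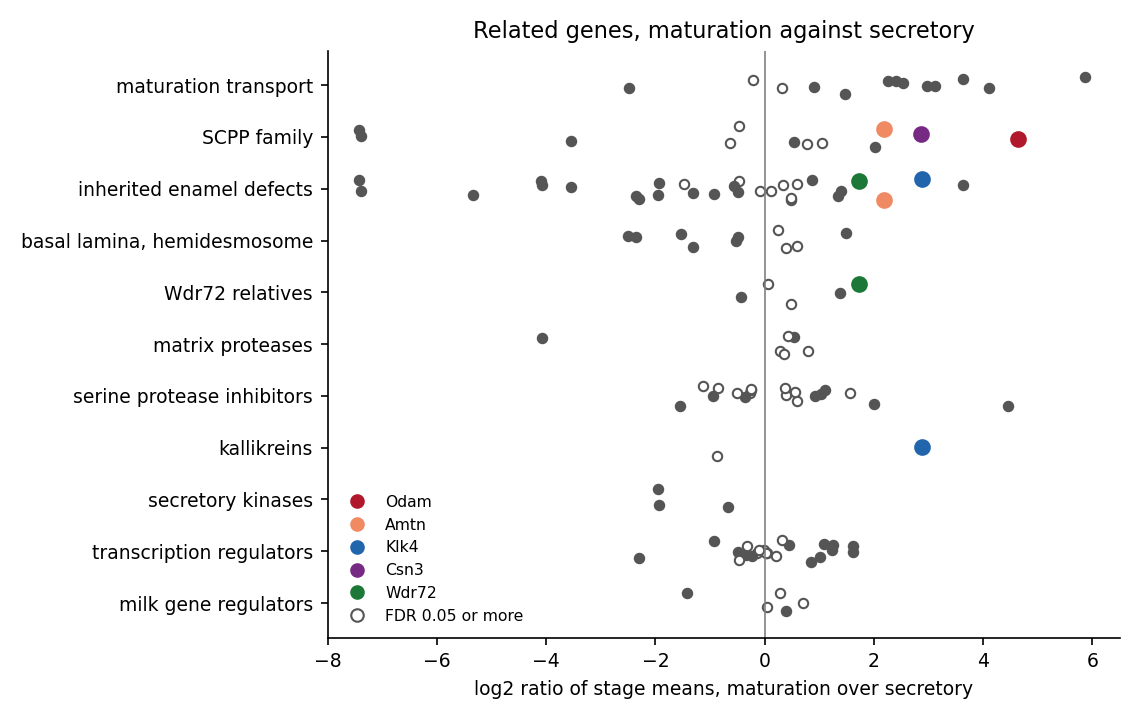
Log2 ratio of authors' means, maturation over secretory (x axis), for each gene of 11 lists (rows), with the 5 genes in colour. Filled points have an FDR under 0.05 and open points do not; genes with a mean at or under the floor in either stage are not drawn. The coloured points all lie right of 0, ion transport genes mostly so, and secretory kinases left of it.

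A list of 22 regulatory genes was chosen from work on enamel and milk genes. It holds mostly transcription factors, with Tgfb1 and receptor genes for its product. Of the 22, 8 were higher in maturation than in secretory cells, 5 were lower and 9 did not pass. Among all genes, 21.8% passed as higher and 21.1% as lower. Tgfb1, a growth factor gene, was 3.08-fold and the C/EBP gene Cebpb 2.39-fold higher in maturation (FDR = 0.00122 and FDR = 0.000364, the authors' deposited table). The subunits of NF-Y, a factor that binds CCAAT, differed in direction. Nfya was 1.26-fold and Nfyc 1.17-fold lower (FDR = 0.0151 and FDR = 0.0412, the authors' deposited table). Nfyb was 1.37-fold higher, at 25.6 in maturation and 18.8 in secretory cells (the authors' deposited table, FDR = 0.0233). Tgfbr2, a receptor for the Tgfb1 product, was 1.91-fold lower (the authors' deposited table, FDR = 0.0177). Sp6, a transcription factor of ameloblasts, was 4.89-fold lower, as given above. Of 5 genes that act on casein expression in the mammary gland, Stat5b was 1.31-fold higher and Jak2 2.69-fold lower (FDR = 0.0210 and FDR = 0.000706, the authors' deposited table). The prolactin receptor gene Prlr stood at 1.26 in maturation and 0.772 in secretory cells and did not pass (the authors' deposited table, FDR = 0.136).

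Across the 3 stages, the genes nearest in pattern were sought by the distance between pairs of log2 ratios, among 14037 other genes with every mean above the floor and 1 mean of at least 1. Gpr155 lay nearest to Odam, 0.31 log2 units away, with authors' means of 5.07, 27.1 and 694 from cervical loop to maturation. It was 25.7-fold higher in maturation, against secretory cells (the authors' deposited table, FDR = 0.00118). Myl1, a myosin light chain gene of muscle, came next at 0.59, but did not pass between maturation and secretory cells (9.12 in maturation and 0.492 in secretory cells, the authors' deposited table, FDR = 0.873). Clca5 followed at 0.73. Car6, a secreted carbonic anhydrase gene, lay nearest to Klk4 at 0.25, with authors' means of 1.22, 12.3 and 96.7. Mreg lay nearest to Amtn at 0.41, and the second nearest of all to Amtn was Klk4 at 0.71. Snap25, of the vesicle fusion machinery, was second to Klk4 at 0.50, followed by Amtn at 0.71. Npr3, a clearance receptor for natriuretic peptides, lay nearest to Wdr72 at 0.18, followed by AABR07006111.1 at 0.20 and Creb5 at 0.23. Odam stood 2.58 from Amtn and 2.97 from Wdr72. Csn3, whose cervical loop mean was under the floor, was not placed. Likeness over 3 stages is a description of 2 numbers per gene.

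Markers of other cell types differed in how they moved. Between maturation and secretory cells, 21.8% of all genes passed as higher in maturation and 21.1% as lower. The 5 markers of stratum intermedium and papillary layer had summed authors' means of 516 in cervical loop, 849 in secretory and 777 in maturation cells. Of these, 1 was higher in maturation than in secretory cells, 2 were lower and 2 did not pass. The 7 myeloid markers summed to an authors' mean of 222 in cervical loop, 188 in secretory and 669 in maturation cells, and 5 of them were higher in maturation than in secretory cells. The 6 skeletal muscle markers summed to 3.04, 6.77 and 136 in the same order, with 1 of them, Tnni1, passing. The 8 mesenchyme markers summed to 10211, 10816 and 14694, with 3 of them higher in maturation than in secretory cells. The 5 endothelial markers with a value summed to 105, 136 and 208, with Kdr and Flt1 higher in maturation than in secretory cells (FDR = 0.00184 and FDR = 0.0103, the authors' deposited table). Of 4 nerve and Schwann cell markers, which summed to 12.5, 21.3 and 28.3, Mbp was 2.96-fold higher (the authors' deposited table, FDR = 0.000550). The 6 odontoblast and bone markers went the other way and summed to 374, 150 and 135. Of these, 0 were higher in maturation than in secretory cells and 1, Dspp, was lower. None of the 3 lymphoid and 3 erythroid markers with a value passed in that comparison. The part of all these cells in the results was not tested. Oral epithelium, which makes Odam and Amtn where gum meets tooth, and salivary gland could also enter a dissection. Of 10 oral epithelial markers listed, 5 had a value, and 2 of these were higher in maturation than in secretory cells. Krt16 stood at 5.17 in maturation and 0.0326 in secretory cells, and Krt76 at 5.80 in maturation and 1.30 in secretory cells (FDR = 0.000313 and FDR = 0.00401, the authors' deposited table). The other markers of that epithelium with a value were near 0 in maturation, with authors' means of 0.163 for Krt4, 0.216 for Krt13 and 0.408 for Crnn. The salivary markers Amy1a and Bpifa2 stood at 0.371 and 0.382 in maturation. Of 7 salivary markers listed, 4 had a value, and none of these passed.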

How the data were processed

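Per the labels, RNA of 3 enamel organ populations was sequenced as single-end reads of 75 bases. The submitters' processing notes name STAR 2.5.3a, Partek and the build rn6; no annotation, filter, scaling or model term is named there. The authors deposited 1 least-squares mean per gene and stage, with no stated unit, treated here as a score, and p-values with FDR for each pair of stages. Their total column is the sum of 3.99 cervical loop, 3.99 secretory and 5.01 maturation means, near 4, 4 and 5 libraries, or 13, whereas the labels allow 14. Per-library values were not analysed here.

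A Benjamini-Hochberg adjustment was run on the deposited p-values of 16516 genes (threshold 0.05), which equalled the authors' FDR within rounding. Direction came from the means. Implied standard errors are the log2 ratio divided by the t value of the deposited p-value at 6 error degrees of freedom, where the 3 p-values mismatched by a median of 0.273%, against 1.32% at 7 and 3.58% at 10. With 13 libraries and stage as the single term, 10 would remain; 6 would remain with a further term for 5 rats, which no source used here names. The steps were tested on simulated data. The 3 transcript tables of 9949 rows hold 0 rows of these genes. Missing symbols were looked up through RefSeq synonyms, and of 5 promoters 4 matched. Named genes were the smallest p-values of each list in maturation against secretory (up to 4, plus up to 2 in the other direction) and the 3 nearest patterns; genes ranked beside these by level are not given, as nothing states that the means are per length. A few genes that the rule names are not reported here. Genes named with values outside that rule were chosen after their values were seen. Members, lists and motifs were chosen with earlier results of these data known, and the first-step shares and gene order were added after seeing the data. Python 3.11.15, numpy 2.4.6, pandas 2.3.3 and scipy 1.17.1 were used.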

Additional observations from a re-analysis of the deposited data

How the results depend on the processing

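All 15 directions held under every alternative that was run. A stricter limit or a pseudocount cannot turn a direction, and rescaling moved the ratios little. The directions holding therefore says nothing about replicate error. Under the stricter Benjamini-Yekutieli adjustment, 1 of the 5 genes, Wdr72, passed between maturation and secretory cells, with adjusted p-values of 0.0680 for Odam, 0.142 for Csn3, 0.144 for Klk4 and 0.229 for Amtn. In secretory against cervical loop 1 gene passed, Wdr72, and Amtn stood at 0.169. At a threshold of 0.01 the counts were 2 and 1, since Amtn (0.0223), Klk4 (0.0140) and Csn3 (0.0138) lay above it between maturation and secretory cells, and Amtn (0.0164) in secretory against cervical loop. These changes follow from the stricter limits themselves. In maturation against cervical loop all 5 genes passed in each case. Filters on low means of 1 and 10, and a minimum fold of 2, changed no call. Rescaling by the 75th percentile or by the sum without the 10 largest genes moved no log2 ratio by more than 0.14, and p-values could not be refitted after rescaling. One fewer or 1 more error degree of freedom moved an implied standard error by at most 1.34 times. Against the cervical loop, all-gene medians of log2 ratios were -0.12 for maturation and -0.14 for secretory cells. No paired analysis was possible because each stage is 1 deposited mean, and whether the deposited p-values already hold a rat term is not stated. Leaving out replicates was likewise not run. Depth per gene is unknown, which limits the lowest means most, that of Csn3 in the cervical loop among them.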
